A study of Rattus norvegicus with 8 samples.

Results

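Rab proteins, the largest branch of the Ras superfamily of small GTPases, were described here at the level of their mRNAs in the rat orbitofrontal cortex after infusion of an siRNA against a circular RNA. The members are the protein-coding genes of the count table whose symbol is Rab followed by a number and at most a letter and a further digit. The members reported are 56 genes of 34298 in the table. The 8 animals were male rats of the outbred Sprague-Dawley strain, adult and 8 weeks old on arrival. Of these, 4 animals received an siRNA against the backsplice junction of rno_circRNA_013711, a circular RNA of the neurexin 3 gene (circNrxn3), and 4 received a scrambled siRNA. In both groups 5 ng of siRNA in 1 µl of JetPEI transfection reagent was infused into the orbitofrontal cortex, and the tissue was taken 7 days later. The tissue piece is a mixture of cell types that the reagent need not all have reached, and no uninfused animals were analysed here. In such bulk samples, fewer cells of a type and less RNA per cell cannot be told apart. The circNrxn3 siRNA strands, as given in the labels, are shown because they define the treated group.
circNrxn3 siRNA sense: UCCAAAGGCUAGACAGGAAUU
circNrxn3 siRNA antisense: UUCCUGUCUAGCCUUUGGAUU

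A Rab protein switches between a GTP-bound form, which sits on a membrane and recruits effectors, and a GDP-bound form that GDP dissociation inhibitors hold in the cytosol. Exchange factors load GTP, GTPase-activating proteins trigger its hydrolysis, and a lipid (geranylgeranyl) tail added with the help of escort proteins anchors the protein. Each Rab marks particular membranes: in neurons, Rab3 and Rab27 proteins act on synaptic and secretory vesicles, Rab1, Rab2 and Rab6 between endoplasmic reticulum (ER) and Golgi, Rab5 on early endosomes, Rab4 and Rab11 in recycling, and Rab7 on late endosomes and lysosomes.

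Library totals ran from 27589883 to 35221782 counts, and 18274 to 20494 genes had a count. Linear Nrxn3 had 430, 381, 82 and 268 counts in circNrxn3 siRNA animals 1 to 4, against 344, 114, 216 and 261 counts in scrambled animals 1, 3, 4 and 5. The libraries were poly-A selected, so these counts check linear transcripts and not the circle. Values per library are given as CPM, read counts divided by the TMM-adjusted library size. As a measure of long against short genes, the deviation of log2 CPM from each gene's mean was taken in every library, and its median over short genes (under 1372 bp) was subtracted from that over long genes (over 3486 bp). This log2 ratio was 0.15, 0.20, -0.07 and 0.01 in circNrxn3 siRNA animals and 0.07, -0.16, -0.19 and -0.03 in scrambled animals. Scrambled animals 3 and 4 and circNrxn3 siRNA animal 3 were lowest on this measure. Summed red blood cell markers, here 5 genes, were 252 ± 69.2 CPM with circNrxn3 siRNA and 548 ± 313 CPM with scrambled siRNA (SD, n = 4 each). All 5 were lower with circNrxn3 siRNA, 4 of them at an unadjusted p under 0.05 (edgeR, 80.0%, against 5.59% of all genes). Alas2 and Hbb-b1 did not overlap between groups (40.0%, against 3.48% of all genes), and 0 of the 5 passed the adjusted test. Cortical excitatory neuron markers, led by Slc17a7, were present at 2679 ± 262 CPM with circNrxn3 siRNA and 2817 ± 195 CPM with scrambled siRNA. Oligodendrocyte markers stood at 3304 ± 718 and 2984 ± 1184 CPM, astrocyte markers at 1266 ± 159 and 1441 ± 162 CPM, and microglia markers at 284 ± 77.0 and 300.1 ± 68.0 CPM, in the same order of groups. Oligodendrocyte precursor markers, here 4 genes, did not overlap in their sum, at 70.5 ± 3.47 CPM (65.5 to 73.1) with circNrxn3 siRNA and 81.0 ± 2.75 CPM (78.6 to 83.8) with scrambled siRNA. Among them C1ql1 alone did not overlap between groups (1 of 4 genes, against 3.48% of all genes). Its log2 fold change was -0.35 ± 0.09 (SE, unadjusted p = 0.00314 and adjusted p = 0.833, edgeR). Cspg4 at -0.21 ± 0.13, Pdgfra at -0.07 ± 0.11 and Gpr17 at 0.14 ± 0.47 (log2, SE) overlapped, and Gpr17 lay above 0. The part of these marker levels in the values below was not tested. Endothelial and mural markers summed to 89.5 ± 10.95 CPM with circNrxn3 siRNA and 89.2 ± 6.80 CPM with scrambled siRNA. Of that list, Cldn5 was listed at 0 in all libraries, while the endothelial marker Flt1 averaged 33.8 and 27.8 CPM in the same order.

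Rab mRNAs ranged from among the most abundant in this tissue to none detected. On the authors' FPKM scale, which divides counts by gene length and library total, 8 members had a mean of at least 100 over the 8 libraries, 25 lay between 10 and 100, 14 between 1 and 10, and 9 under 1. The summed level of all 56 was 2215 ± 53.5 FPKM with circNrxn3 siRNA and 2191 ± 61.7 FPKM with scrambled siRNA (SD, n = 4 each). The 10 highest members held 64.7% of that sum and the 3 highest 29.3%.

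Rab11b, the recycling endosome Rab enriched in brain, was highest, at 251 ± 21.8 FPKM with circNrxn3 siRNA and 276 ± 24.2 FPKM with scrambled siRNA. The gene (ENSRNOG00000007648) lies at chr7:18598880-18612147 of rn6 on the minus strand, and its level exceeded that of 98.6% of protein-coding genes. Rab6b, the neuron-enriched form of the Golgi Rab6, followed at 222 ± 4.96 and 210 ± 4.23 FPKM (circNrxn3 siRNA, then scrambled siRNA), and its broadly expressed relative Rab6a at 176 ± 8.92 and 158 ± 14.1 FPKM. Rab2a, an ER-to-Golgi Rab, averaged 152 FPKM over all libraries on a gene model of only 621 bp. Rab7a, which directs late endosomes to lysosomes, averaged 129 FPKM, the early endosome Rab5c 126 FPKM, and Rab1a, needed for ER-to-Golgi transport, 108 FPKM. The rapid recycling Rab4b stood at 104 FPKM, Rab15, an endocytic Rab of neural cells, at 84.7 FPKM, and the vesicle exocytosis gene Rab3b at 77.0 FPKM. These are the same 10 genes when TMM-scaled CPM per kilobase is used in place of FPKM.

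The order below the top was not resolved gene by gene. Of 55 pairs of neighbours in the ranking, only 3 had ranges over the 8 libraries that did not overlap: Rab11b over Rab6b, Rab6b over Rab6a, and Rab11a over Rab31. Rab11b ranged from 229 to 297.5 FPKM and Rab6b from 206 to 227 FPKM, whereas Rab2a, next below Rab6a, ranged from 117 to 217 FPKM.

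**Figure D1:**
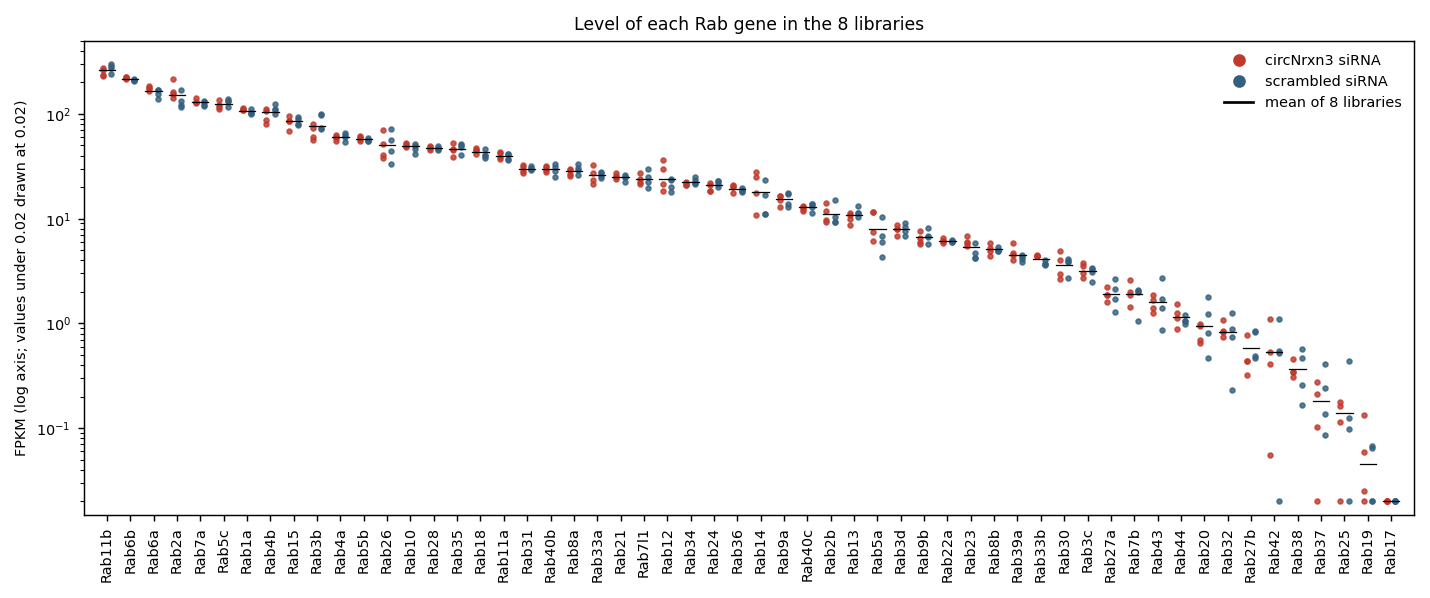
FPKM (log axis) of the 56 Rab genes in order of their mean, with 1 point per library, circNrxn3 siRNA left of scrambled siRNA, and a bar at the mean of the 8 libraries. Rab11b is highest at a mean of 263 FPKM, 8 genes lie at or above 100 FPKM, and Rab17, at 0 in all libraries, is drawn at the floor of 0.02.

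At the low end, 9 members had a mean under 1 FPKM. Rab17, an epithelial Rab, had 0 counts in every library, where 3 counts, the upper limit that a count of 0 allows, would equal 0.109 CPM in the smallest library. Rab19 had 2, 1, 8 and 4 counts in circNrxn3 siRNA animals and 4, 0, 0 and 4 counts in scrambled animals. Rab25, an epithelial relative of Rab11, had 0, 6, 5 and 4 counts with circNrxn3 siRNA and 3, 0, 16 and 4 counts with scrambled siRNA. Rab37, a Rab of secretory granules, had 10, 4, 0 and 11 counts with circNrxn3 siRNA and 3, 17, 10 and 5 counts with scrambled siRNA. These 4 genes did not pass edgeR's filter on low counts, whose minimum count of 10 is scaled to library size. They were therefore not tested and no fold is given. Among the other members under 1 FPKM were Rab27b, a secretory granule Rab, at 0.577 FPKM, and the melanosome Rabs Rab32 and Rab38, at 0.824 and 0.366 FPKM.

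Close paralogues shared their family's output unevenly. Of the FPKM summed over Rab11a and Rab11b, Rab11b made up 86.1 ± 1.29% with circNrxn3 siRNA and 87.5 ± 1.59% with scrambled siRNA (SD, n = 4 each). In the Rab5 family Rab5c made up 64.2 ± 2.79% and 67.2 ± 3.09%, Rab5b 30.9 ± 1.41% and 29.3 ± 1.80%, and Rab5a 4.90 ± 1.62% and 3.57 ± 1.44%, circNrxn3 siRNA first in each pair. Rab6b and Rab6a were the most even, with Rab6b at 55.8 ± 0.875% and 57.3 ± 1.94%. Rab4b made up 61.8 ± 2.39% of the Rab4 pair with circNrxn3 siRNA and 64.6 ± 1.54% with scrambled siRNA. Rab8a, which carries cargo to the plasma membrane and the cilium, made up 84.5 ± 1.28% and 85.4 ± 0.984% of the Rab8 pair in the same order. These shares were not tested between groups. Reads that fit more than 1 paralogue may have been split or dropped in counting, and Rab1a in particular may share reads with LOC100363782, which the table describes as RAB1B-like and which is no member.

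The stretch upstream of each gene's start was read from RefSeq (GRCr8, a later build than the rn6 of the counts), where 46 of the 56 members matched by symbol. The sequences below are the 250 bases upstream of the start of the 3 highest and the 3 lowest members with an entry, shown because they mark both ends of the range of levels. They are written 5′ to 3′ on the gene's strand, with every CG dinucleotide in capitals. The windows of the high members lie at chr7:15236755-15237004 (minus strand) for Rab11b, chr8:112573973-112574222 (plus strand) for Rab6b and chr1:164369783-164370032 (plus strand) for Rab6a.
Rab11b: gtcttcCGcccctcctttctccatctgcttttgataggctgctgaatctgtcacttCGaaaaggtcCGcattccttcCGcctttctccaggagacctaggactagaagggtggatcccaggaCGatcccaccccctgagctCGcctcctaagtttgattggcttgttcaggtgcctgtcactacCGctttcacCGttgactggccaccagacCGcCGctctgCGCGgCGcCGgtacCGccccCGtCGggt
Rab6b: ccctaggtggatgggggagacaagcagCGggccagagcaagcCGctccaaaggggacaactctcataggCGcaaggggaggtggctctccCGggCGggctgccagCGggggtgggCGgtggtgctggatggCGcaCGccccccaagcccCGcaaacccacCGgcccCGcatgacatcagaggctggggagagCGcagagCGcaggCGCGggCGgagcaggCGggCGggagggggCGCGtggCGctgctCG
Rab6a: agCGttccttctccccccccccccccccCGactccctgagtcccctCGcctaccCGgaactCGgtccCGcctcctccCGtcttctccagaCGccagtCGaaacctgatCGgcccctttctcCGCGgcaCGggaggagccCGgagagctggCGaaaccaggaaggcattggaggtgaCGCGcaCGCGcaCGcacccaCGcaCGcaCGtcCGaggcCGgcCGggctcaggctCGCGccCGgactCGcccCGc

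The windows of the 3 lowest members lie at chr2:176304222-176304471 (minus strand) for Rab25, chr4:69123712-69123961 (plus strand) for Rab19 and chr9:99014033-99014282 (minus strand) for Rab17.
Rab25: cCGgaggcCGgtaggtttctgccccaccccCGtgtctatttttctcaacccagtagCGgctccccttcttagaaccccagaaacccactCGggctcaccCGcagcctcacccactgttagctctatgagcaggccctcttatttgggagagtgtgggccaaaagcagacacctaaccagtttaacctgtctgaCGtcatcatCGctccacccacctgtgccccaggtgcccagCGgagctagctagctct
Rab19: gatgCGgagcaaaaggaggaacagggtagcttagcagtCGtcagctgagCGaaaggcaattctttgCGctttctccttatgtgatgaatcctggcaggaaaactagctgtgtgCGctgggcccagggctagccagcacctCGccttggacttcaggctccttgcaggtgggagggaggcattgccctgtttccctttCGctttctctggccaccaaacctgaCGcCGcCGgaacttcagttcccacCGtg
Rab17: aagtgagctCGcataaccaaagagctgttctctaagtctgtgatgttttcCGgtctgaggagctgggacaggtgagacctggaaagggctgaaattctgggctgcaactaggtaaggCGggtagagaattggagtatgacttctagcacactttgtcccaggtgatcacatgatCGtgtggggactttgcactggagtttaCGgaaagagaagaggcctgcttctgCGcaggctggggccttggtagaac

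CG pairs number 17 in Rab11b, 23 in Rab6b and 31 in Rab6a, and 9 in Rab25, 11 in Rab19 and 6 in Rab17. Set against the C and G content of each window, the observed over expected CpG ratio was 0.80, 0.70 and 1.01 in the 3 high members and 0.45, 0.54 and 0.39 in the 3 low members. Over all 46 matched members the median ratio was 0.68 and 67.4% reached 0.6, whereas over all 33469 RefSeq promoters of the same length the median was 0.38 and 33.0% reached 0.6. Among genes with a mean of at least 2 FPKM, 77.1% of 35 members and 70.1% of 8466 genes reached 0.6. Below 2 FPKM, 36.4% of 11 members and 30.8% of 6061 genes did.

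Letter strings of known promoter elements were searched on both strands of the same windows. The GC box core GGGCGG occurred in 35 of 46 members (76.1%) and in 30.5% of all promoters. CCAAT occurred in 15 members (32.6%, against 34.0% of all promoters), and TATAAA in none, against 12.9% of all promoters. CACGTG, an E-box, occurred in Rab31, Rab21 and Rab5a (6.52%, against 5.59%). Rab5a lies on chromosome 14 in the counted build rn6 and on chromosome 9 in GRCr8, so its window may not belong to the gene model that was counted. TGACGTCA, the cAMP response element, occurred in Rab25 (2.17%, against 1.59%). The 10-letter core palindrome of the NRF1 element, searched with no variable letters, occurred in Rab18 (2.17%, against 0.762%). The shares of all promoters were not matched on level, whereas the CpG shares above came closer once genes of at least 2 FPKM were set side by side. Whether these strings set Rab genes apart from other genes of like level was not tested. A match describes the letters in this window and no binding was measured.

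**Figure D2:**
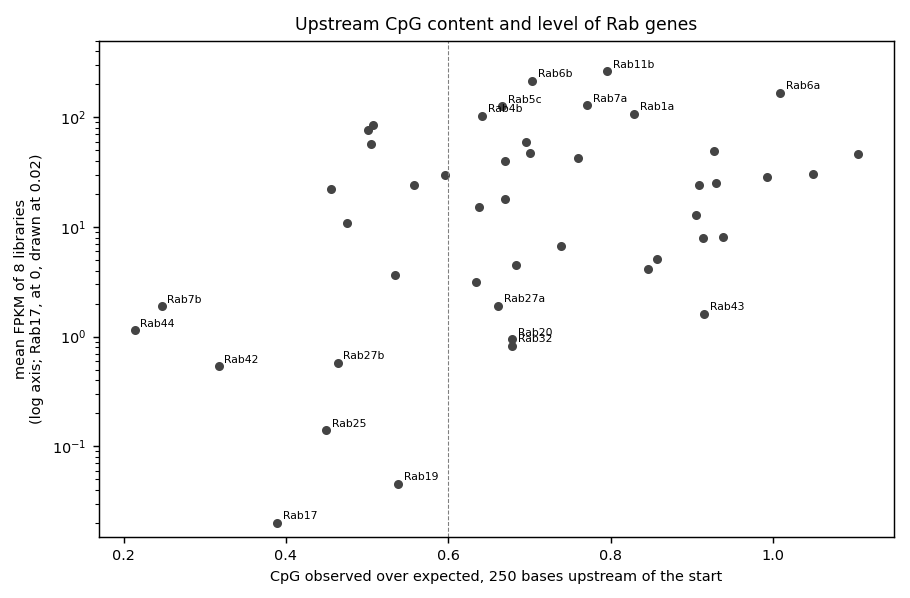
Observed over expected CpG ratio in the 250 bases upstream of the start (GRCr8) against mean FPKM (log axis), with 1 point per matched Rab gene (46) and a dashed line at 0.6. The 7 labelled genes at or above 100 FPKM all lie right of the line, and the lowest, Rab25, Rab19 and Rab17, lie left of it.

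The comparison of circNrxn3 siRNA with scrambled siRNA asks which mRNAs differ after an siRNA against the circle. No Rab gene passed the test. Of the 52 members tested, 0 had an adjusted p under 0.05 (edgeR's quasi-likelihood test with Benjamini-Hochberg adjustment over 16573 genes), and 0.0% of all genes did. The members' adjusted p ran from 0.833 to 0.9996. DESeq2 called 0 members as well, with a smallest adjusted p of 0.355 among the 22 members that had one, and called 0.445% of the 4042 genes with an adjusted p there. At an unadjusted p under 0.05 there were 3 members, Rab23, Rab33b and Rab3b, which is 5.77% of those tested against 5.59% of all genes. Rab23 and Rab33b were on the higher side with circNrxn3 siRNA, where 2.38% of all genes lay, and Rab3b on the lower side, where 3.2% lay. DESeq2 gave 4 at that level, adding Rab2a, where 6.34% of all genes reached it, and limma-voom the same 3, where 6.06% did.

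Differences were small in size for most members. The log2 fold changes ran from -0.41 (Rab27b, at 0.577 FPKM) to 0.45 (Rab5a), with 30 above 0 and 22 below. The 30 make up 57.7% of the tested members, against 51.3% of all genes above 0 and 48.7% below, and the median was 0.02, against 0.01 for all genes. The standard error was under 0.15 on the log2 scale for 35 of 52 members, and its median was 0.11, against 0.17 over all genes. CPM values did not overlap between groups for 2 members, Rab33b and Rab6b, or 3.85%, against 3.48% of all genes. Both were higher with circNrxn3 siRNA, as were 1.82% of all genes, while 1.65% of all genes did not overlap in the lower direction.

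Rab23, a Rab of the primary cilium that restrains Hedgehog signalling, had the smallest unadjusted p. Its values were 22.6, 27.8, 24.4 and 23.7 CPM in circNrxn3 siRNA animals 1 to 4, against 23.7, 16.8, 16.8 and 18.7 CPM in scrambled animals 1, 3, 4 and 5. Scrambled animals 3, 4 and 5 lay below every circNrxn3 siRNA animal, and scrambled animal 1 lay among them. The log2 fold change was 0.38 ± 0.13 (SE), with an unadjusted p of 0.0144 and an adjusted p of 0.833 in edgeR's quasi-likelihood test with Benjamini-Hochberg adjustment. The gene is at chr9:38470298-38495176 (rn6, minus strand). The log2 fold change was 0.32 with a trend on gene length taken out, and 0.22 without the 3 libraries lowest in long transcripts. Without those 3 libraries, only circNrxn3 siRNA animals 1, 2 and 4 and scrambled animals 1 and 5 are compared.

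Rab33b, a Golgi Rab that also takes part in autophagosome formation, gave 15.1, 15.0, 15.4 and 14.8 CPM with circNrxn3 siRNA, against 12.3, 12.4, 12.3 and 13.6 CPM with scrambled siRNA. All circNrxn3 siRNA animals lay above all scrambled animals, within a span of a few CPM. The log2 fold change was 0.25 ± 0.10 (SE), the unadjusted p 0.0263 and the adjusted p 0.833 in the same edgeR test. The gene lies at chr2:140541619-140552220 on the plus strand.

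Rab3b, one of the Rab3 isoforms of regulated exocytosis, was the member with a low unadjusted p in the other direction. It had 70.8, 66.1, 93.4 and 84.5 CPM in circNrxn3 siRNA animals, against 83.5, 116, 114 and 85.5 CPM in scrambled animals. The highest values were those of scrambled animals 3 and 4, and circNrxn3 siRNA animal 3 was the highest of its group, so that the 3 libraries lowest in long transcripts were the 3 highest for this gene. The groups overlapped. The log2 fold change was -0.34 ± 0.14 (SE, unadjusted p = 0.0400, edgeR adjusted p = 0.833), and -0.19 without those 3 libraries, with the part of the libraries' makeup in it not tested.

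Rab2a and Rab6a came next by unadjusted p. Rab2a had 97.8, 136, 88.3 and 102 CPM with circNrxn3 siRNA, against 106, 75.0, 72.9 and 82.7 CPM with scrambled siRNA. Scrambled animal 1 was second highest of all 8, and the log2 fold change was 0.34 ± 0.15 (SE, unadjusted p = 0.0552, edgeR, adjusted p = 0.833). It was 0.19 without circNrxn3 siRNA replicate 2 and 0.26 without the 3 libraries lowest in long transcripts. Rab6a had 658, 621, 578 and 623 CPM with circNrxn3 siRNA, against 594, 481, 585 and 542 CPM with scrambled siRNA. Only circNrxn3 siRNA animal 3 overlapped the scrambled range, and the log2 fold change was 0.17 ± 0.08 (SE), or 0.11 without scrambled replicate 3.

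Rab6b, with the most counts of all members, had 1079, 1058, 1031 and 1082 CPM with circNrxn3 siRNA, against 999, 970.1, 1019 and 1004 CPM with scrambled siRNA. The groups did not overlap, yet the log2 fold change was 0.09 ± 0.06 (SE), the unadjusted p 0.179, and the log2 fold change was 0.02 with the length trend taken out and 0.10 without the 3 libraries. The gene is at chr8:111600532-111668808 on the plus strand.

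**Figure D3:**
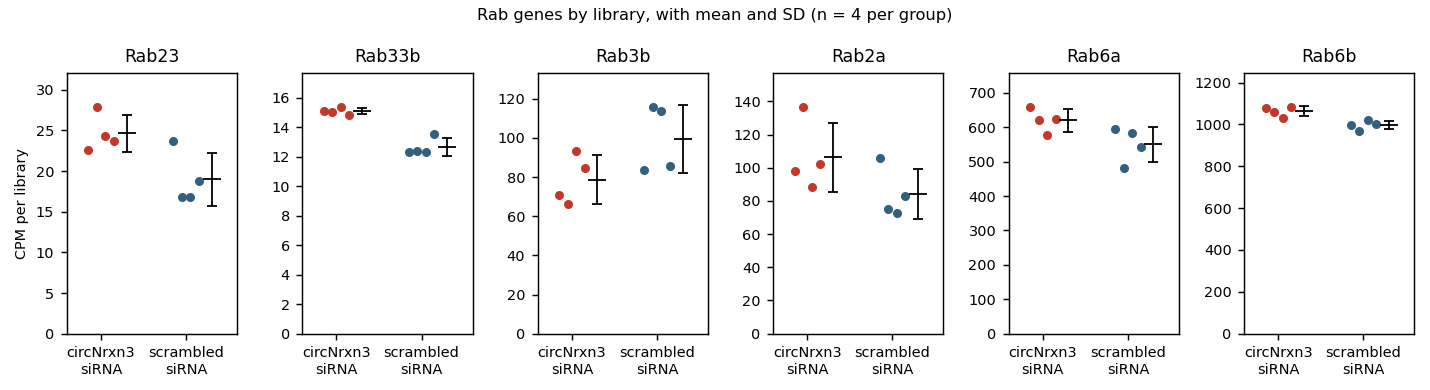
CPM of 6 Rab genes, with 1 point per library and the mean ± SD beside each group of 4, circNrxn3 siRNA left of scrambled siRNA. Rab33b (14.8 to 15.4 CPM against 12.3 to 13.6 CPM) and Rab6b (1031 to 1082 CPM against 970.1 to 1019 CPM) do not overlap between groups, and the other 4 genes do.

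By site of action, 0 members of any group passed the adjusted test. The ER and Golgi Rabs were 11 genes, 10 of them tested, and held 33.2% of all Rab FPKM. Of these 10, 9 had a log2 fold change above 0 and 1 below (Rab43, -0.09), with a median of 0.10, where 51.3% of all genes lay above 0. The 9 include Rab33a at 0.0009, Rab30 at 0.007 and Rab2b at 0.03 ± 0.20 (SE). Besides Rab2a, Rab6a, Rab6b and Rab33b, this group held Rab1a at 0.10 ± 0.06 and Rab18, a Rab of ER and lipid droplets, at 0.14 ± 0.08 (log2, SE), with Rab18 at 0.21 without scrambled replicate 1. The summed level was 770 ± 35.7 FPKM with circNrxn3 siRNA (726 to 813) and 695 ± 39.1 FPKM with scrambled siRNA (650.1 to 744), so the groups overlapped. The count above 0 was 9 with the length trend taken out and 6 without the 3 libraries lowest in long transcripts, with a median of 0.10 in both.

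The exocytosis and secretion Rabs counted 7, of which 6 were tested, with 1 above 0 and 5 below and a median log2 fold change of -0.03. Their summed level was 131 ± 24.3 FPKM with circNrxn3 siRNA and 152 ± 31.3 FPKM with scrambled siRNA, led by Rab3b and Rab26. Without the 3 libraries, 3 of the 6 were above 0. Late endosome and lysosome Rabs, 10 genes, had 7 above 0 and 3 below, with Rab39a, a Rab of late endosomes and autophagy, at 0.20 ± 0.12 and Rab12, which directs transferrin receptor to lysosomes, at 0.33 ± 0.20. Rab39a was at 0.09 without circNrxn3 siRNA replicate 1 and Rab12 at 0.14 without circNrxn3 siRNA replicate 2. The summed level of this group was 213 ± 5.85 FPKM with circNrxn3 siRNA and 201 ± 3.86 FPKM with scrambled siRNA, with overlap (205 to 218 against 198 to 207).

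Recycling Rabs had 2 above 0 and 5 below among 7 tested, with a median log2 fold change of -0.03 that turned to 0.01, with 4 above 0, without the 3 libraries. Their sum was 596 ± 44.5 FPKM with circNrxn3 siRNA and 636 ± 41.0 FPKM with scrambled siRNA. Rab4b was at -0.19 ± 0.11 (-0.11 without circNrxn3 siRNA replicate 2) and Rab11b at -0.13 ± 0.09 (log2, SE). Early endosome Rabs had 4 above and 4 below among 8 tested, at 272 ± 8.40 and 277 ± 8.50 FPKM, circNrxn3 siRNA first. Rabs of the trans-Golgi route and cilia had 4 above and 3 below, with Rab10, which carries vesicles to the plasma membrane, at 0.10 ± 0.08 and Rab28, a Rab of photoreceptor cilia, at 0.03 ± 0.06. With the length trend taken out, the median turned to -0.06 in the early endosome group, against 0.01 as reported, and to -0.01 in the trans-Golgi group, against 0.03. The 4 less studied Rabs had 3 above and 1 below, with Rab40b, whose protein joins a ubiquitin ligase, at 0.04 ± 0.10 and Rab36 at 0.09 ± 0.08. Rab36 was at 0.03 without the 3 libraries, at 0.14 without circNrxn3 siRNA replicate 1 and at 0.06 without circNrxn3 siRNA replicate 3.

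**Figure D4:**
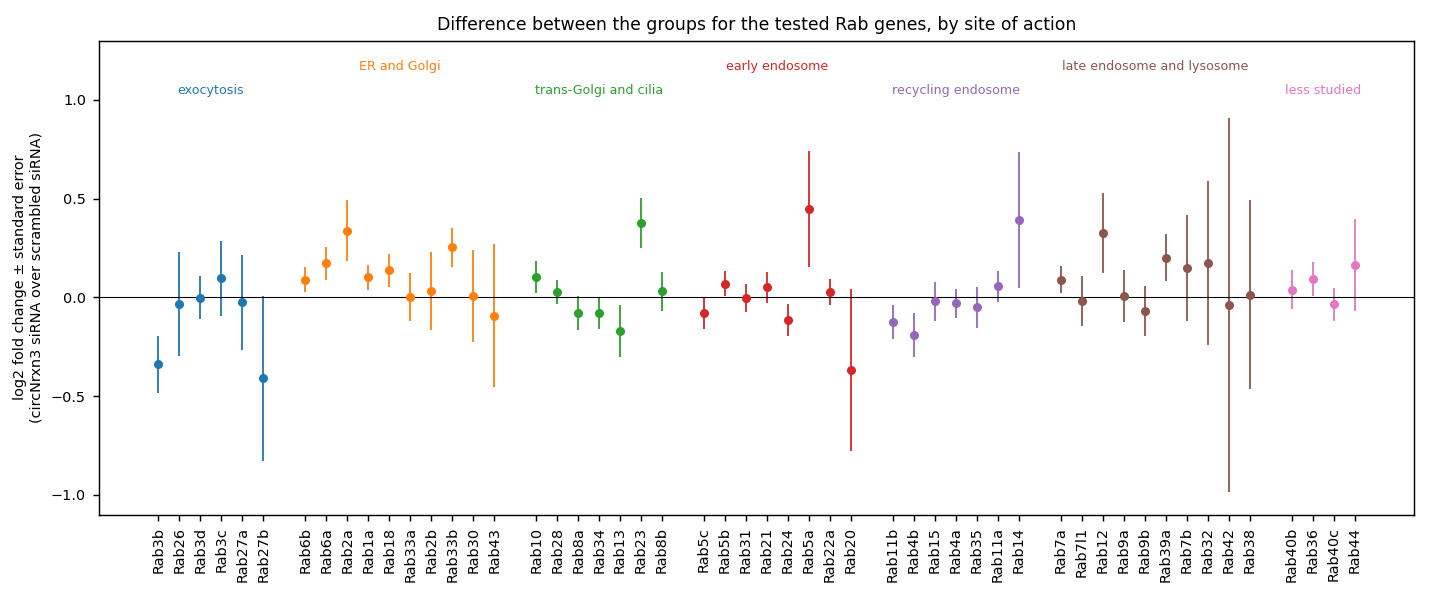
Log2 fold change of circNrxn3 siRNA over scrambled siRNA with its standard error for the 52 tested Rab genes, grouped by site of action. Of the ER and Golgi Rabs 9 of 10 lie above 0, some of them close to 0, where 51.3% of all genes lie above 0. The 5 largest errors belong to members under 1 FPKM.

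Members differed in how far libraries of 1 group lay apart. The median SD of log2 CPM within groups was 0.16 for the members and 0.24 for all tested genes. Among members with at least 5 FPKM the narrowest was Rab6b (0.03), followed by Rab22a, an early endosome Rab (0.05), and Rab1a (0.05). The widest were Rab14, a Rab of Golgi-to-endosome traffic (0.58), Rab5a (0.50) and Rab26, a Rab of secretory and synaptic vesicles (0.44), which are described after their values were seen. Rab14 had 34.3, 37.8, 14.6 and 23.8 CPM with circNrxn3 siRNA, against 32.0, 15.0, 14.8 and 22.6 CPM with scrambled siRNA. Rab5a had 18.4, 18.6, 9.79 and 11.9 CPM with circNrxn3 siRNA, against 16.4, 6.71, 9.33 and 10.7 CPM with scrambled siRNA. Both genes were lowest in the 3 libraries lowest in long transcripts, and their gene models are 1343 and 1570 bp long. The log2 fold change was 0.39 ± 0.35 for Rab14 and 0.45 ± 0.29 for Rab5a (SE). Rab5a was at 0.72 without scrambled replicate 1, at 0.27 without scrambled replicate 3, and at 0.27 without the 3 libraries. Rab26 ran the other way, with 95.5, 89.0, 165 and 120.4 CPM in circNrxn3 siRNA animals against 78.4, 168, 131 and 103 CPM in scrambled animals.

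Those 3 libraries were the 3 lowest for 2 of 52 members (3.85%, against 10.3% of all genes) and the 3 highest for 7 (13.5%, against 6.94% of all genes), namely Rab11b, Rab24, Rab26, Rab3b, Rab4a, Rab5c and Rab7l1. The part of this in the group differences was not tested. Rab5a's span overlaps Pp2d1 on the opposite strand (954 counts over all libraries), Rab2b's overlaps Tox4 (18898 counts) and Rab40c's overlaps RGD1307155 (5685 counts). Rab24, with a gene model of 5981 bp, overlaps Prelid1 on the opposite strand, which is listed at 0 in all libraries. For all 4, reads in the shared stretch are uncertain, since the sources used here do not say whether counting took account of strand.

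**Figure D5:**
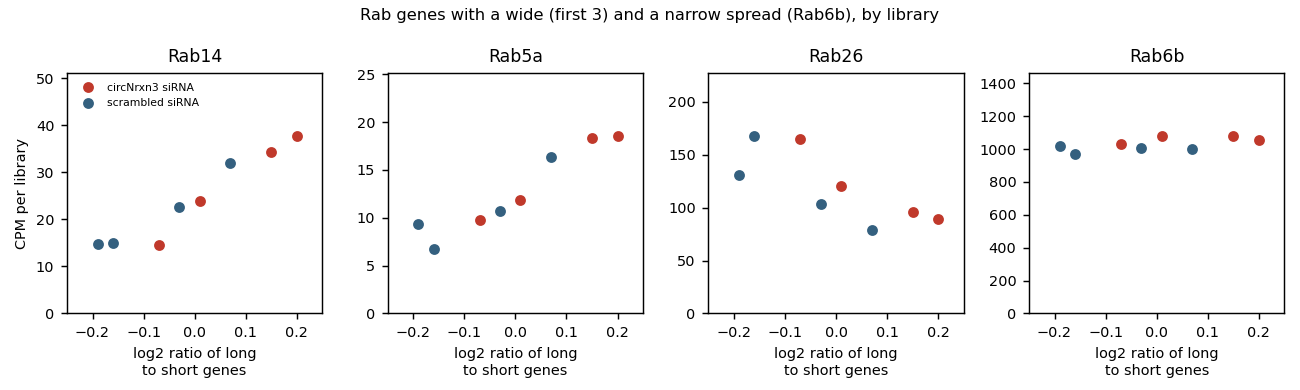
CPM of 4 Rab genes against the log2 ratio of long to short genes, with 1 point per library in the colours of the 2 groups. Rab14 and Rab5a are low and Rab26 high in the 3 libraries at -0.07 and below, while Rab6b stays between 970.1 and 1082 CPM.

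The genes that drive the Rab cycle were described from lists of 146 tested genes in all, 0 of which passed the adjusted test. At an unadjusted p under 0.05 there were 4, or 2.74%, against 5.59% of all genes. Log2 fold changes were above 0 for 101 of the 146 (69.2%, against 51.3% of all genes), with a median of 0.07. With the length trend taken out, 87 were above 0 and the median was 0.03, and without the 3 libraries lowest in long transcripts 94 were above 0 and the median was 0.05. The median gene model was 3726 bp in these lists and 2215 bp over all tested genes, and the part of gene length in the shift was not tested.

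Of the prenylation, escort and dissociation inhibitor genes, 5 of 8 tested were above 0. Gdi2, a GDP dissociation inhibitor, averaged 172 ± 8.88 CPM with circNrxn3 siRNA and 165 ± 4.59 CPM with scrambled siRNA (log2 fold change 0.07 ± 0.06, SE). Rabggta, a subunit of the prenylating enzyme, was at 0.09 ± 0.07, and Rabac1, a Golgi protein that binds prenylated Rabs, at -0.13 ± 0.10.

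Exchange factors had 24 above 0 and 11 below among 35 tested. Sh3bp5, an exchange factor for Rab11, had 36.5 ± 2.60 CPM with circNrxn3 siRNA and 30.0 ± 3.42 CPM with scrambled siRNA (log2 fold change 0.29 ± 0.10, SE). Madd, an exchange factor for Rab3 and Rab27, had 128 ± 9.47 and 111 ± 10.9 CPM (0.21 ± 0.09). The TRAPP complexes, which activate Rab1 and Rab11, had 9 above and 5 below among 14, with Trappc8 at 0.20 ± 0.10 and Trappc2l at -0.15 ± 0.07. GTPase-activating proteins had 23 above and 12 below among 35, with Tbc1d19 at 0.24 ± 0.14 and Tbc1d5, which acts on Rab7, at 0.27 ± 0.16. The kinases Lrrk1 and Lrrk2 and the phosphatase Ppm1h, which act on Rab switch regions, were at 0.04 ± 0.21, 0.10 ± 0.13 and 0.20 ± 0.26.

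Effectors had 37 above 0 and 14 below among 51 tested, and the groups did not overlap for 3 of them (5.88%, against 3.48% of all genes). Rilpl2, which binds Rab8 and Rab10 at the cilium, had 58.0 ± 2.89 CPM with circNrxn3 siRNA and 66.8 ± 1.10 CPM with scrambled siRNA (log2 fold change -0.20 ± 0.06, SE). Ehbp1, which links Rab8 and Rab10 to actin, had 46.0 ± 0.503 and 39.8 ± 3.04 CPM (0.21 ± 0.07). Exoc6b, a subunit of the exocyst complex, had 58.9 ± 1.93 and 54.5 ± 1.96 CPM (0.11 ± 0.06), circNrxn3 siRNA first in each pair. As reported, 2 of the 51 had an unadjusted p under 0.05 (3.92%, against 5.59% of all genes). Without the 3 libraries lowest in long transcripts 0 did, and 3.47% of all genes.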

How the data were processed

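The authors deposited whole-number read counts per gene and FPKM values for the 8 libraries in separate tables. Dividing counts by FPKM and gene length gave 1 total per sample. Of the upstream steps, the submitters' processing notes list the build rn6 and the tools featureCounts 1.5.0-p3, HISAT2 2.0.5, fastp and StringTie 1.3.3b, without roles. Libraries were strand-marking (dUTP) and poly-T selected, per the labels' protocols. Per the labels, each group's 4 samples are biological replicates, and no pair of libraries within a group agreed within sampling noise.

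Counts were fitted with edgeR 4.0.16 in R 4.3.3 (filterByExpr, minimum count 10; TMM scaling; robust quasi-likelihood F test, 2-sided) over 16573 genes. P-values were adjusted by Benjamini-Hochberg, with a threshold of 0.05. CPM are TMM-scaled, and the within-group SD used log2 CPM with a prior count of 2. Alternatives were DESeq2 1.42.0, limma 3.58.1 (voom, and log2(FPKM + 1 or + 0.1)), other scalings and filters, a lowess trend on gene length (span 0.3) as offset, and libraries left out. Leaving out the 3 libraries lowest in long transcripts was chosen after seeing the data. It leaves circNrxn3 siRNA animals 1, 2 and 4 against scrambled animals 1 and 5, so the groups are smaller and of unequal size. The fit was tested on simulated data.

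The members and lists were chosen with earlier results of these data known. Named are the 10 members with the highest mean FPKM, the 10 with the smallest unadjusted p, the 2 highest and the 1 with the smallest p in each site group, members whose groups did not overlap and members not tested. From each list up to 4 genes with the smallest p are named, with Gdi2 and the effector Exoc6b, whose groups did not overlap. A gene of the symbol pattern and a gene that the naming rule lists are not reported here.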

Additional observations from a re-analysis of the deposited data

Results flagged for a closer look

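Of 104 groups of 4 libraries looked at (52 members in each treatment), 3 held a library far from the others of its group, and chance alone gives about 1 in 20. Rab33b stood at 13.6 CPM in scrambled animal 5, against 12.3 to 12.4 CPM in the other scrambled animals, which brings that animal nearest to the circNrxn3 siRNA group. Rab30, a Golgi Rab, stood at 4.32 CPM in scrambled animal 3, against 6.22 to 6.56 CPM in the others. Rab7b, an endosome-to-Golgi Rab, stood at 2.71 CPM in the same animal, against 5.22 to 5.47 CPM in the others. Scrambled animal 3 is among the 3 libraries lowest in long transcripts and had the fewest genes with a count (18274), and the part of this in both values was not tested.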

How the results depend on the processing

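Under all 22 alternatives 0 Rab members and 0 regulator or effector genes passed the adjusted threshold. With DESeq2, 30 of the 52 tested members had no adjusted p, Rab23 and Rab33b among them. The median log2 fold change of the members ran from -0.01 to 0.06, with the same range when each library was left out in turn. None of 13 member fold changes followed through the alternatives changed sign. These 13 were picked from the main fit for an unadjusted p among the smallest of all members, for the smallest of their site group, or for groups that did not overlap. The alternatives also reuse the same libraries, so the stable signs are no independent support. Counts of members with an unadjusted p under 0.05 ran from 0 to 6: 0 without the 3 libraries lowest in long transcripts (3.47% of all genes), 6 without circNrxn3 siRNA replicate 3 (9.11% of all genes) and 6 without scrambled replicate 1 (10.1% of all genes). Over all genes, calls went from 0 to 18 with DESeq2, to 1 without circNrxn3 siRNA replicate 2 or 3, and to 3 without the 3 libraries.

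Replicate numbers 1, 3 and 4 occur in both groups. Deviations of same-numbered animals correlated at 0.37, 0.30 and 0.09. Among the scrambled animals, animals 1 and 3 correlated best with circNrxn3 siRNA animals 1 and 3, while animal 4 correlated best with circNrxn3 siRNA animal 3 (0.22). Whether equal numbers mark anything shared is not stated in the labels and was not tested. With a replicate block over these 6 libraries, 0 members passed the adjusted threshold and the members' median log2 fold change was 0.02, while 4 had an unadjusted p under 0.05 (Rab3b, Rab5a, Rab6a and Rab7a), as did 10.1% of all genes, against 1 (Rab33b) and 3.04% of all genes without the block. Depth limits the 9 members under 1 FPKM most.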
